A study of Neogale vison with 6 samples.

Results

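ANGPTL4 and a set of genes for the handling and oxidation of fatty acids were followed in Mv1Lu cells, an epithelial cell line from mink lung, after cholesterol depletion (CD). The 9 genes were taken by name from the count table, which holds 24526 genes. They are ANGPTL4, PLIN2, PDK4, CPT1A, CPT2, ACADM, ACADVL, HADHA and FABPH, the symbol under which the table lists the heart fatty acid binding protein, FABP3. A row was found for 8 of them. No row carries the symbol PLIN2, the gene of perilipin 2, a coat protein of lipid droplets, and none has perilipin 2 as its description, so PLIN2 was not analysed here. The set was chosen with the response of these same libraries known, so the values of the 8 genes are given as a description, without p-values.

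The study asked which transcripts change when the free cholesterol of the cells is mildly reduced. RNA was sequenced from 3 libraries of untreated cells (control) and 3 libraries of CD cells. CD meant 16 h with 50 μM lovastatin, a statin that inhibits HMG-CoA reductase, together with 50 μM mevalonate, the product of that enzyme, in medium with 10% lipoprotein-deficient serum (LPDS). The drug and the serum differed together between the groups, so their shares in a difference cannot be told apart. Nothing in the labels says that the libraries came from separate cultures, and the tests below then measure only the spread between these libraries.

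Fatty acids that enter a cell are carried by binding proteins, activated to acyl-CoA, and then stored in lipid droplets or burned. To be burned in mitochondria they pass the inner membrane as carnitine esters, and a repeated cycle of dehydrogenation, hydration, dehydrogenation and thiolysis shortens them. Many of these genes are transcribed under the peroxisome proliferator-activated receptors (PPARs), nuclear receptors that bind fatty acids, and ANGPTL4 and PDK4 are widely used reporters of their activity.

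Reads on genes ranged from 13473820 to 18633764 per library. Levels are given as CPM, the counts of a gene brought to a common library size, with library sizes scaled by TMM so that the bulk of the genes is level between libraries. Of 12148 genes with enough reads to test, 5800 (47.7%) differed between CD and control in edgeR at a false discovery rate (FDR) under 0.05, 3016 (24.8%) higher and 2784 (22.9%) lower in CD. The biological coefficient of variation was 0.0842 among control and 0.213 among CD libraries. Of the epithelial markers, KRT19 was abundant, with 43324 control and 21118 CD reads, whereas CDH1 had 8 and 18, EPCAM 7 and 2, CLDN7 4 and 1, and ESRP1 20 and 49. KRT8 and KRT18 were not found by symbol and were not analysed here, and of the 5 markers found only KRT19 was present at more than a trace.

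In CD cells ANGPTL4 was 33.6-fold lower and FABPH 94.9-fold higher than in control cells, and each was within the outermost 10 of the genes tested in its direction. PDK4 was 2.91-fold and ACADM 1.43-fold higher. The enzymes CPT2, ACADVL and HADHA differed by 1.12- to 1.20-fold, and CPT1A overlapped between the groups. In the fit over all genes 3 of the 8 were called higher (PDK4, ACADM and FABPH) and 1 lower (ANGPTL4), which is given beside the shares of all genes called, 24.8% and 22.9%, with nothing read from it because the genes were chosen on this contrast. ACADM was not called without control replicate 1 or 3, and ACADVL and HADHA were called without CD replicate 1. The 3 control and 3 CD libraries did not overlap for 6 of the 8, ANGPTL4 on the lower side and PDK4, CPT2, ACADM, HADHA and FABPH on the higher side, where 58% of all genes tested did not overlap, 29.5% higher and 28.6% lower.

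**Figure D1:**
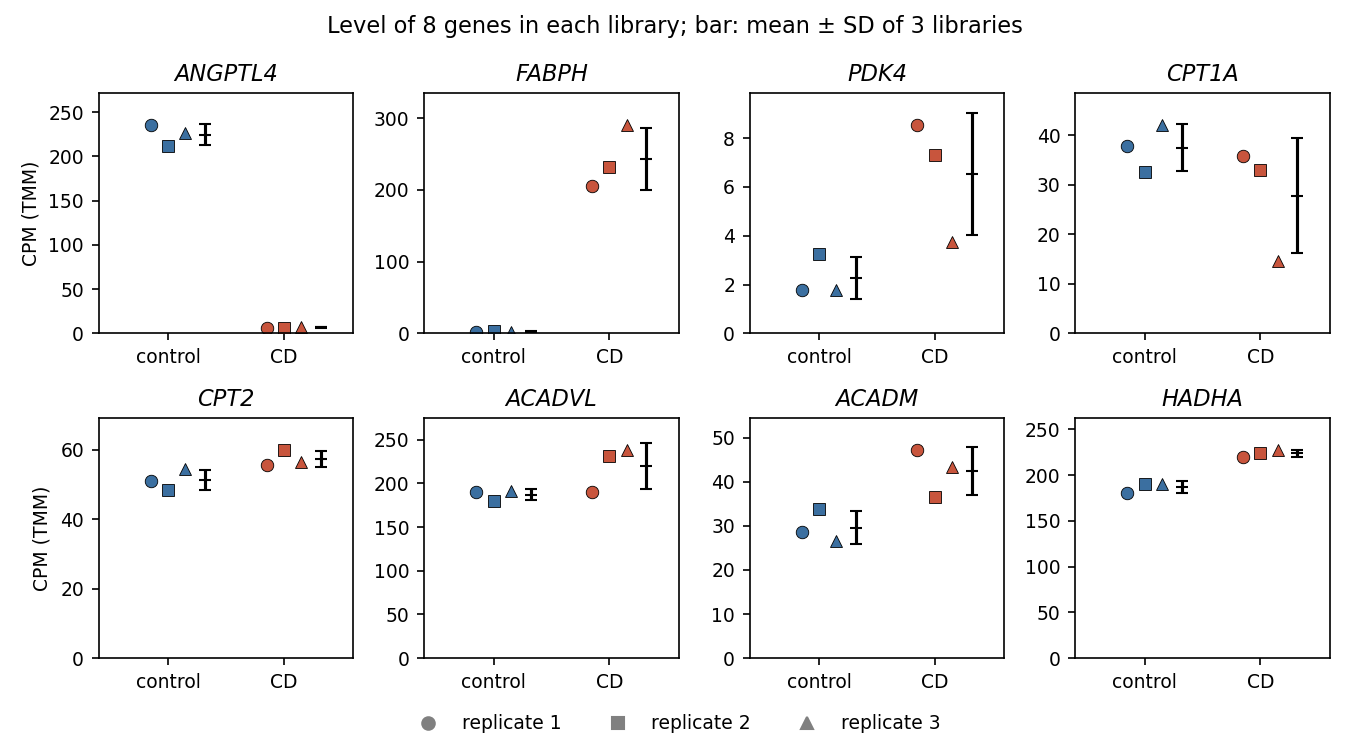
Level of each of the 8 genes, in CPM on a linear axis from 0, in the 3 control (blue) and 3 CD (red) libraries, with the mean ± SD of each group to the right of its points. ANGPTL4 fills only the control side and FABPH only the CD side, whereas CPT1A overlaps and has its lowest point, 14.6 CPM, in CD replicate 3.

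ANGPTL4 encodes a secreted inhibitor of lipoprotein lipase, the enzyme that frees fatty acids from circulating lipoproteins. ANGPTL4 (ENSNVIG00000017269) stood at 236, 212 and 227 CPM in control replicates 1, 2 and 3, and at 6.15, 6.69 and 7.28 CPM in CD replicates 1, 2 and 3. The lowest control library was far above the highest CD library, and both groups were tight. The mean was 225 ± 12.2 CPM (SD, n = 3) in control and 6.70 ± 0.565 CPM (SD, n = 3) in CD, a log2 fold change of -5.07 ± 0.13 (SE). With any 1 library left out it stayed between -5.16 and -5.00. Counted from the lowest log2 fold change, ANGPTL4 ranked 5 of the 12148 genes. In bulk RNA, fewer cells that express a gene and less RNA per cell cannot be told apart, here and for every gene below.

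The lipase that ANGPTL4 inhibits, and the proteins around it, were also read. LPL, chosen for this role after its values were seen, had 43.3, 41.6 and 42.7 CPM in control and 39.6, 32.7 and 22.5 CPM in CD. Its log2 fold change of -0.42 ± 0.19 (SE) did not pass (edgeR FDR 0.0882, which became 0.0141 without CD replicate 1). Without CD replicate 3 the log2 fold change of LPL shrank to -0.27. FURIN, a protease known to cleave ANGPTL proteins and LPL, fell by 1.35 ± 0.14 (SE) on the log2 scale, and its 3 CD libraries (388 to 493 CPM) lay below its 3 control libraries (981 to 1230.0 CPM). LMF1, which helps lipases to fold in the endoplasmic reticulum, fell by 0.48 ± 0.14 (SE) with an edgeR FDR of 0.0143, which became 0.0557 without control replicate 1 and 0.0788 without control replicate 3. ANGPTL2, a family member not known as a lipase inhibitor, fell by 1.38 ± 0.22 (SE). ANGPTL5 had a log2 fold change of 0.48 ± 0.32 (SE) and ANGPTL6 one of -0.24 ± 0.20 (SE), and neither passed. ANGPTL1 had 1 read, ANGPTL7 4 and ANGPTL8 7 over the 6 libraries together. In this list of 13 genes 6 could be tested, of which 3 fell and 0 rose in edgeR. The share that fell was 50%, beside 22.9% of all genes, and the share that rose was 0%, beside 24.8%, with a median log2 fold change of -0.45 against 0.06 over all genes tested. The number that fell was 2 without control replicate 1 or 3.

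FABPH carries long-chain fatty acids in the cytosol, and is best known from heart and skeletal muscle. FABPH (ENSNVIG00000024151) had 2.22, 2.96 and 2.48 CPM in control replicates 1, 2 and 3 and 206, 232 and 291 CPM in CD replicates 1, 2 and 3. No library of either group came near the other group, and the highest CD library was replicate 3. The log2 fold change was 6.57 ± 0.20 (SE), between 6.39 and 6.69 with any 1 library left out, and ranked 10 from the highest. The control values rested on 31, 41 and 45 reads and the CD values on 3353, 3781 and 4036.

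Among the other fatty acid binding proteins only FABP5, the epidermal form, had enough reads to test. FABP5 had 86.4, 101 and 90.3 CPM in control and 273, 276 and 417 CPM in CD, and it rose by 1.80 ± 0.17 (SE) on the log2 scale (edgeR FDR 2.65e-05). As for FABPH, CD replicate 3 was the highest library. The adipocyte form FABP4 had 6 control and 9 CD reads, FABP9 had 0 and 2, and FABP1, FABP2, FABP6, FABP7, FABP12 and PMP2, among them the liver, intestinal, brain and myelin forms, had none, so no difference in these genes was detectable at this depth.

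Markers of heart and skeletal muscle, where FABPH is known to be abundant, were read beside it. Of 12 such markers 5 could be tested, of which MYH6 (14 control and 46 CD reads) and TNNI3 (59 and 162) rose, and ACTC1 (1026 and 669) and MB (52 and 22) fell. MB had an edgeR FDR of 0.015, which became 0.0836 without control replicate 3 and 0.0578 without CD replicate 2, and it was not called by DESeq2 (FDR 0.0916). The summed level of the 12 was 28.2 to 29.5 CPM in control and 22.4 to 28.1 CPM in CD. Most of it was ACTC1, with 21.5 to 23.0 CPM in control and 13.6 to 16.4 CPM in CD. The defining markers TNNC1, MYL2 and MYL3 had no read in any library. Adipocyte markers summed to 26.2 to 30.0 CPM in control and 27.4 to 32.8 CPM in CD, nearly all of it CIDEC, with ADIPOQ and LEP at 0 reads throughout. Macrophage and leukocyte markers moved in the same direction as FABPH, from 5.57 to 6.67 CPM in control to 21.1 to 26.0 CPM in CD, through CD68 and CSF1R, whereas PTPRC had 1 read in all and LYZ none. Of the remaining marker lists, the alveolar type 2 list summed to 63.2 to 82.0 CPM in control and 88.1 to 134 CPM in CD through ABCA3, with SFTPB and SFTPC at 0. The epithelial list went from between 884 and 1012 to between 381 and 534 CPM, the endothelial list from between 206 and 221 to between 74.9 and 123 CPM through TEK, and the fibroblast list from between 227 and 276 to between 159 and 202 CPM. The part of other cell types in the levels of ANGPTL4 and FABPH was not tested beyond these sums.

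PDK4 encodes a kinase that shuts the pyruvate dehydrogenase complex, which spares glucose when fatty acids are burned. PDK4 (ENSNVIG00000019382) was a rare transcript, with 1.79, 3.25 and 1.76 CPM in control and 8.54, 7.30 and 3.75 CPM in CD. The highest control library, replicate 2, lay just under the lowest CD library, replicate 3. The counts were 25, 45 and 32 in control and 139, 119 and 52 in CD, and the log2 fold change of 1.54 ± 0.35 (SE) had the largest error of the 8 genes, with a range of 1.32 to 1.88 when 1 library was left out.

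The other kinases of the same complex were PDK2, PDK1 and PDK3. PDK2 had 236, 205 and 214 CPM in control and 352, 410 and 392 CPM in CD, and rose by 0.82 ± 0.11 (SE). PDK1, known as a hypoxia-responsive kinase, had a log2 fold change of -0.66 ± 0.31 (SE; edgeR FDR 0.103, which became 0.00274 without CD replicate 1), and PDK3 one of 0.21 ± 0.12 (SE; edgeR FDR 0.193). The phosphatase that reopens the complex, PDP1, rose by 1.28 on the log2 scale, or by 0.85 without CD replicate 1. The complex subunits PDHB and DLAT rose by 0.72 and 0.56. PDK2 and PDP1, which act in opposite directions on the complex, thus both rose. Of 11 tested genes for the entry of pyruvate into mitochondria 4 rose and 0 fell in edgeR, and 7 did not pass, with a median of 0.21. The share that rose was 36.4%, beside 24.8% of all genes, and 6 rose without CD replicate 3 while 1 fell without CD replicate 1.

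The carnitine shuttle begins with CPT1A, the liver form of the outer-membrane enzyme and the rate-limiting step of long-chain oxidation. CPT1A (ENSNVIG00000011801) had 37.8, 32.6 and 42.1 CPM in control and 35.8, 33.0 and 14.6 CPM in CD. CD replicates 1 and 2 lay inside the control range and CD replicate 3 far below it. The log2 fold change of -0.43 ± 0.28 (SE) shrank to -0.16 without CD replicate 3 and grew to -0.64 without CD replicate 1. In CD replicate 3 CPT1A was 1.23 log2 units below the mean of the other two CD libraries, and 2.37% of tested genes were as far below, while 41% of tested genes had their lowest CD value in that library. CD replicate 3 also had 41.4% of its reads outside genes, against 31.1% and 31.8% in CD replicates 1 and 2, but control replicates 1 and 2, with CPT1A at 37.8 and 32.6 CPM, had 47.2% and 41.4%. The part of library quality in the CPT1A value was not tested. PDK4 shared this pattern, at 1.05 log2 units below, whereas ANGPTL4, ACADM, ACADVL, HADHA and FABPH were above the mean of the other CD libraries and CPT2 was 0.03 below it.

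CPT2, which hands the acyl group back to coenzyme A inside the mitochondrion, differed little. CPT2 (ENSNVIG00000006991) had 51.0, 48.4 and 54.3 CPM in control and 55.6, 60.0 and 56.5 CPM in CD. The groups just failed to overlap, and the log2 fold change was 0.16 ± 0.11 (SE). Between these enzymes acts the carnitine-acylcarnitine carrier SLC25A20, which had 33.3, 37.8 and 37.4 CPM in control and 56.5, 62.6 and 63.0 CPM in CD and rose by 0.75 ± 0.12 (SE; edgeR FDR 0.000681). Carnitine acetyltransferase, CRAT, rose by 0.75 ± 0.12 (SE) as well. The muscle and brain forms of the first enzyme did not pass, CPT1B with 0.24 ± 0.33 (SE) from 29 control and 35 CD reads and CPT1C with -0.27 ± 0.15 (SE).

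The acyl-CoA dehydrogenases take the first step of each cycle, and differ in the chain length they prefer. ACADVL (ENSNVIG00000000794), for very long chains, had 190, 180 and 191 CPM in control and 191, 231 and 239 CPM in CD. CD replicate 1 fell within the control range and the other CD libraries above it. The log2 fold change was 0.23 ± 0.12 (SE), 0.14 without CD replicate 3 and 0.34 without CD replicate 1. ACADM (ENSNVIG00000010380), for medium chains, had 28.6, 33.8 and 26.6 CPM in control and 47.3, 36.6 and 43.4 CPM in CD. All CD libraries were above all control libraries, by the least in CD replicate 2, and the log2 fold change was 0.52 ± 0.15 (SE), between 0.44 and 0.62 with any 1 library left out. Of the related enzymes, ACADL for long chains (0.40 ± 0.24, SE) and ACADS for short chains (0.04 on the log2 scale) did not pass. ACADL reached an edgeR FDR of 0.0259 without CD replicate 3, but its log2 fold change shrank to 0.13 without CD replicate 1. ACAD11 rose by 0.72 ± 0.17 (SE). ACAD9, better known for the assembly of respiratory complex I, fell by 0.40 ± 0.11 (SE), with an edgeR FDR of 0.0105 that became 0.0543 without control replicate 3.

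The remaining steps for long chains are carried by the trifunctional protein, whose alpha subunit is HADHA. HADHA (ENSNVIG00000011530) had 180, 191 and 191 CPM in control and 220, 224 and 228 CPM in CD. The CD libraries lay above and close together, and the log2 fold change was 0.26 ± 0.10 (SE). Its beta subunit HADHB, matched only by its description and looked up after the other values were seen, overlapped between the groups, with a log2 fold change of 0.02 ± 0.11 (SE; edgeR FDR 0.878). For each HADHB read there were 1.47, 1.55 and 1.58 HADHA reads in control and 1.87, 1.92 and 1.65 in CD. These ratios did not overlap between the groups. Between the subunits the log2 fold change differed by 0.24. The combined SE of 0.15 treats the subunits as independent, although both were read in the same libraries, so it does not measure the spread of the ratios. The thiolase ACAA2, which acts on shorter chains, rose by 0.65 ± 0.12 (SE), and DECR1, an auxiliary enzyme for unsaturated chains, by 0.78 ± 0.18 (SE).

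**Figure D2:**
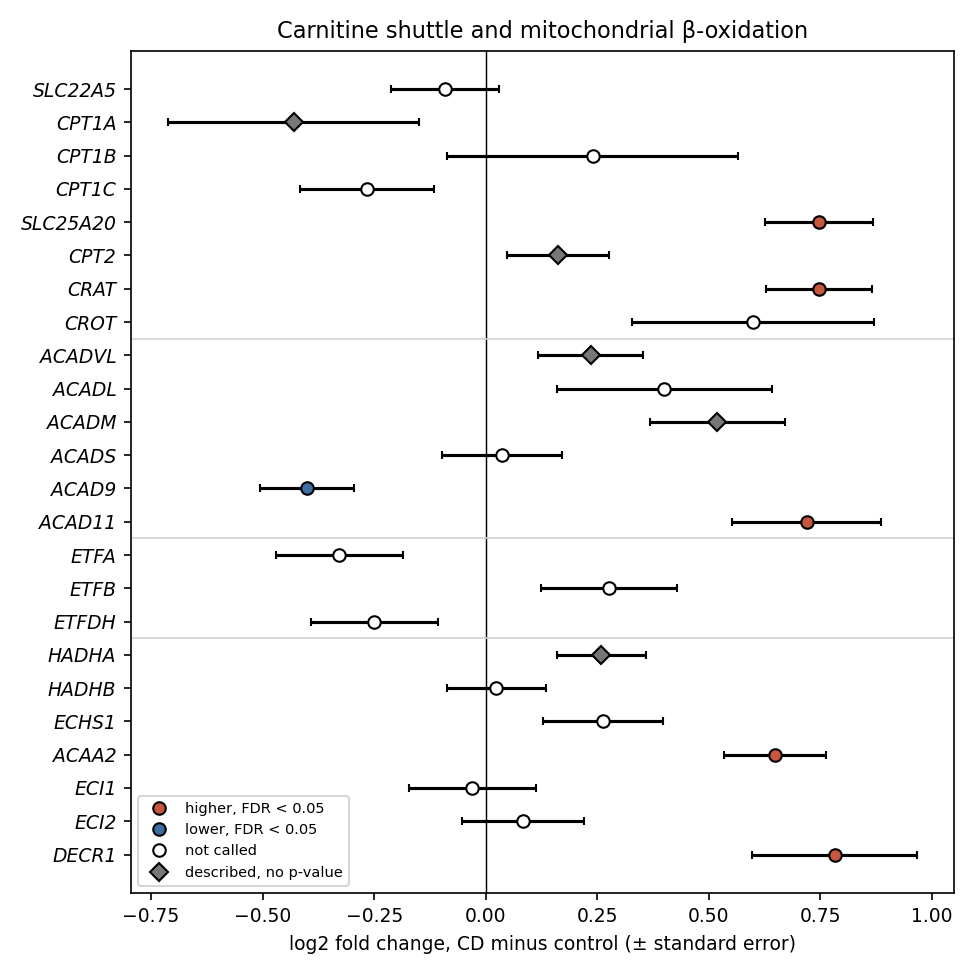
Log2 fold change, CD minus control, with its standard error for genes of the carnitine shuttle (top block), the acyl-CoA dehydrogenases, the electron transfer flavoproteins and the later steps of the cycle (bottom block). Diamonds are the genes of the chosen set, circles are genes called higher (red), lower (blue) or not called (white) in edgeR, and the red circles lie between 0.65 and 0.78.

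In the carnitine shuttle and mitochondrial cycle together, leaving out the chosen genes and the 4 listed genes not found by symbol (HADHB among them), 18 genes were tested by edgeR, of which 5 rose (27.8%), 1 fell (5.56%) and 12 did not pass. The number that fell was 0 without control replicate 3 and 3 without CD replicate 3. Their median log2 fold change was 0.25. Over all genes 24.8% were called higher and 22.9% lower, beside 27.8% and 5.56% of this route, and the difference between these shares was not tested.

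Oxidation in peroxisomes, which shortens very long and branched chains, had 14 tested genes, of which 7 rose (50%) and 1 fell (7.14%) in edgeR, beside 24.8% and 22.9% of all genes, with a median of 0.31. The number that rose was 4 without control replicate 1 or 2, and 2 fell without CD replicate 1. HACL1, which acts on branched chains, rose by 1.54 ± 0.17 (SE), the thiolase ACAA1 by 1.05 ± 0.14 (SE) and the bifunctional enzyme EHHADH by 0.80 ± 0.14 (SE). AMACR, a racemase for branched acyl-CoA, rose by 0.59 on the log2 scale.

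The genes of the fatty acid supply for oxidation were read next. Of 10 tested genes for import and activation, 4 rose (40%) and 2 fell (20%) in edgeR, beside 24.8% and 22.9% of all genes. Without control replicate 3, 2 rose and 1 fell, without control replicate 1 the number that fell was also 1, and without CD replicate 3, 5 rose and 4 fell. SLC27A6, a fatty acid transport protein, rose by 2.30 ± 0.23 (SE) from 0.940 to 1.5 CPM in control to 5.71 to 6.34 CPM in CD, while SLC27A3 of the same family fell by 1.16 ± 0.16 (SE). ACBD3, an acyl-CoA binding domain protein of the Golgi, rose by 0.81. ACSL4, which activates polyunsaturated fatty acids, rose by 1.12 ± 0.32 (SE), with CD replicate 1 at 38.0 CPM against 18.0 and 14.4 CPM in the other CD libraries, and its rise was 0.59 without that library. Its edgeR FDR of 0.0166 became 0.0754 without control replicate 3.

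With PLIN2 not analysed, the other lipid droplet coats and the lipases that act on droplets were described in its place. PLIN3, a coat protein of the same family that is found in most tissues, had 14.3, 11.5 and 15 CPM in control and 97.6, 129 and 136 CPM in CD, and rose by 3.15 ± 0.17 (SE; edgeR FDR 7.69e-07). PLIN1 had 4 control and 6 CD reads and PLIN5 none. PNPLA2, the first lipase of triglyceride breakdown, had 192, 172 and 183 CPM in control and 448, 518 and 481 CPM in CD, and rose by 1.40 ± 0.11 (SE). Its coactivator ABHD5 rose by 2.15 ± 0.15 (SE), and the next lipase LIPE by 1.13 ± 0.13 (SE), each without overlap between the groups. The last lipase, MGLL, fell by 0.79 ± 0.20 (SE), from 9.46 to 11.0 CPM in control to 4.61 to 6.82 CPM in CD. Of 6 tested genes of this list 4 rose, 1 fell and 1, CIDEC, did not pass in edgeR, with a median of 1.27. The shares that rose and fell were 66.7% and 16.7%, beside 24.8% and 22.9% of all genes.

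**Figure D3:**
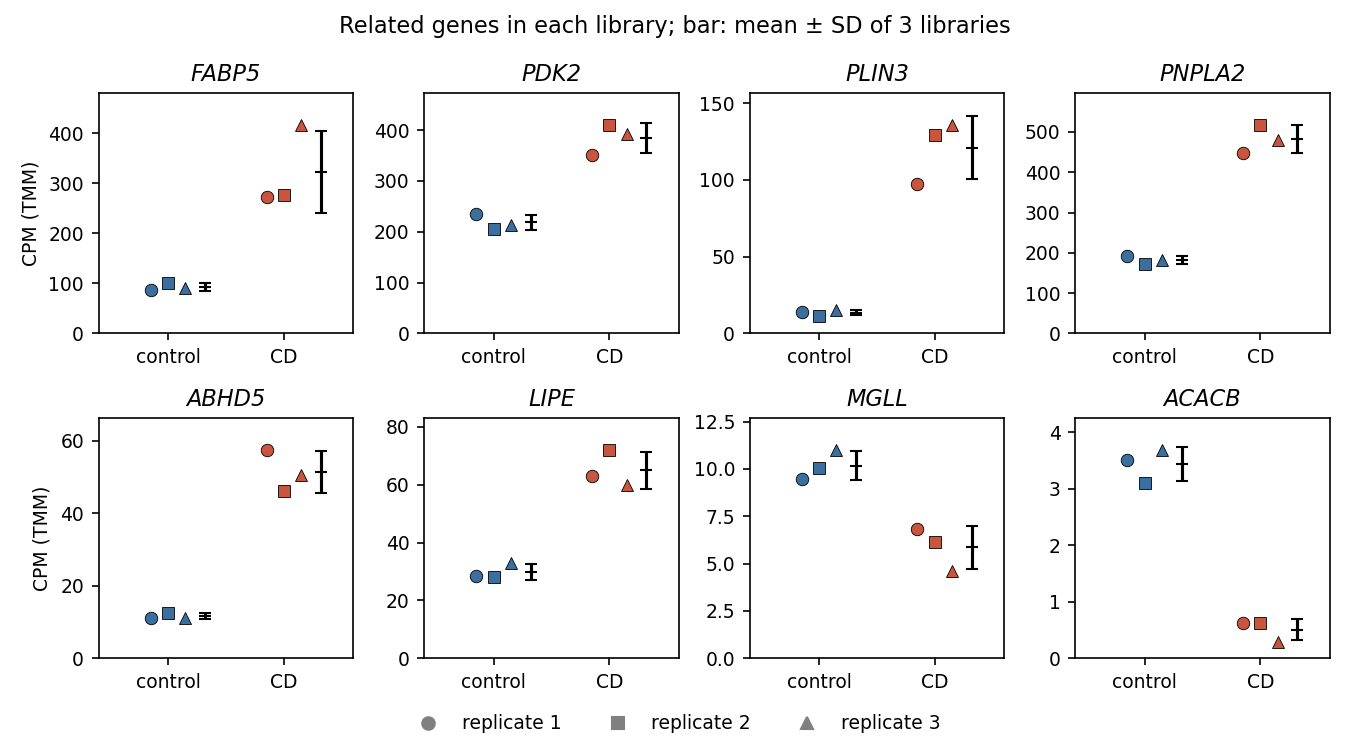
Level in CPM, on linear axes from 0, of 8 genes related to the chosen set, in the 3 control (blue) and 3 CD (red) libraries with the mean ± SD of each group. The groups do not overlap for any of the 8, with MGLL and ACACB lower and the others higher in CD.

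Malonyl-CoA, the product of acetyl-CoA carboxylase, inhibits CPT1A. ACACB, the carboxylase at the mitochondrial surface, had 3.51, 3.11 and 3.69 CPM in control and 0.615, 0.613 and 0.288 CPM in CD, and fell by 2.73 ± 0.30 (SE; edgeR FDR 5.7e-05). ACACA, the cytosolic form, looked up as its partner after its values were seen, had a log2 fold change of -0.04 and did not pass, but without CD replicate 3 it was 0.26 with an edgeR FDR of 0.0467. PRKAG2, a subunit of the AMP-activated kinase that inhibits both carboxylases, rose by 0.63, with an edgeR FDR of 0.0539 without control replicate 1. Of 9 tested genes of this list 1 rose, 1 fell and 7 did not pass in edgeR, with a median of 0.04. Each direction held 11.1% of the list, beside 24.8% and 22.9% of all genes. The number that rose was 0 without control replicate 1, 2 without CD replicate 1 and 4 without CD replicate 3, where 2 fell.

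Of 6 tested genes of ketone body metabolism 3 rose (50%) and 1 fell (16.7%) in edgeR, beside 24.8% and 22.9% of all genes, with a median of 0.39. The number that rose was 1 without control replicate 1 or 2, and 2 without control replicate 3. AACS, which turns acetoacetate into acetoacetyl-CoA for lipid synthesis, rose by 0.75 ± 0.11 (SE), and BDH1, which interconverts the ketone bodies, fell by 0.64 ± 0.12 (SE). ACAT1, a thiolase, rose by 0.42, with an edgeR FDR of 0.085 without control replicate 1 and 0.0728 without control replicate 2.

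Receptors and cofactors that regulate many of these genes were read next, with differences in both directions among those that passed. PPARD, the PPAR form found in most tissues, had 97.7, 85.2 and 90.5 CPM in control and 144, 152 and 117 CPM in CD, and rose by 0.59 ± 0.13 (SE). RXRB, a partner of the PPARs, rose by 0.62 and the coactivator NCOA1 by 1.13. The coactivator PPARGC1B fell by 1.18 ± 0.23 (SE), and PPARGC1A had 2 control and 3 CD reads. PPARG, named after its values were seen, fell by 0.60 ± 0.18 (SE; edgeR FDR 0.0186). Its FDR became 0.0696 without control replicate 2, 0.0741 without control replicate 3 and 0.0569 without CD replicate 2. In all 4 rose (26.7%), 2 fell (13.3%) and 9 did not pass of 15 tested in edgeR, beside 24.8% and 22.9% of all genes, with a median of 0.07. The number that rose was 7 without CD replicate 3 and 3 without any other 1 library, and the number that fell was 1 without control replicate 2 or 3 or CD replicate 2.

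Of 22 other genes known as PPAR targets 11 rose (50%) and 2 fell (9.09%) in edgeR, beside 24.8% and 22.9% of all genes, with a median of 0.48. With CD replicate 1 left out 3 fell, and with CD replicate 3 left out 4 fell. ANGPTL4, itself a PPAR target, was lower in CD. The response of PPAR targets as a set was known when the list was written, so this is no independent evidence of its direction. CREB3L3, a transcription factor of liver and intestine, had 3 control and 398 CD reads, a ratio of 131 with a 95% Clopper-Pearson interval of 44.6 to 639 that covers counting error only. All 3 control reads were in control replicate 1, and the fitted log2 fold change of 6.85, which depends on the prior count at such levels, became 10.06 without that library. TXNIP, an inhibitor of thioredoxin that is also known to respond to glucose, rose by 3.21 ± 0.27 (SE). LPIN1, a phosphatidate phosphatase that is also known as a target of the sterol-regulated factors SREBPs, rose by 2.97 ± 0.26 (SE). PNPLA2 was the other gene of this list with one of the 4 smallest FDR values.

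**Figure D4:**
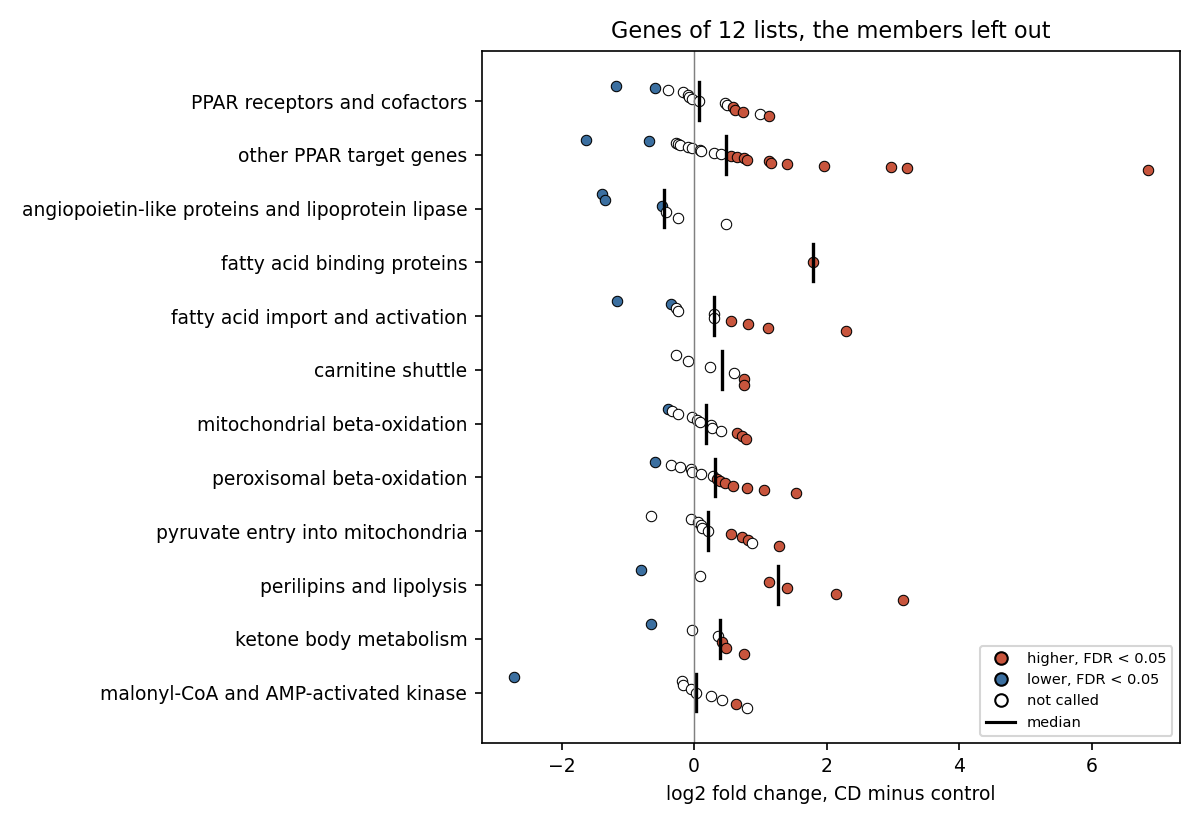
Log2 fold change, CD minus control, of every tested gene of the 12 lists, 1 point per gene and list, red where called higher, blue where called lower and white where not called in edgeR, with the median as a vertical line. The medians run from -0.45 for the angiopoietin-like proteins and lipoprotein lipase to 1.80 for the fatty acid binding proteins, a list with the single tested gene FABP5.

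Over the 12 lists 153 genes were named, of which 23 stand in more than 1 list. A row was found for 133, and 103 could be tested by edgeR, of which 38 rose (36.9%), 14 fell (13.6%) and 51 did not pass. Over all genes 24.8% were called higher and 22.9% lower. The median log2 fold change was 0.28 over the lists and 0.06 over all genes.

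Tested genes with a symbol were searched for a pattern over the 6 libraries like that of ANGPTL4. The 2059 tested genes without a symbol were left out. The closest were CDCA7, CCRL1, ADAMTS15, RPRM and UNG. The measure was the root mean square difference of log2 levels, each set to 0 at the control mean, and was 0.179, 0.224, 0.308, 0.353 and 0.453 in that order. Among them UNG, a DNA repair enzyme, had 65.5 to 70.5 CPM in control and 2.77 to 3.67 CPM in CD. In the same search the genes most like FABPH were PTGS2, FAM167A, DAPP1, DEPP1 and KLF2, at 0.412, 0.565, 0.652, 0.752 and 0.766. PTGS2 had 4 control reads in all, FAM167A 3, DAPP1 6 and DEPP1 7, so their distances depend strongly on the prior count. The same holds for CCRL1 and RPRM, with 7 and 8 CD reads. KLF2, a transcription factor, had 1.23 to 2.51 CPM in control and 72.6 to 121 CPM in CD, with its highest value in CD replicate 3 as for FABPH, whereas PTGS2, the inducible cyclooxygenase, had its lowest CD value there. No gene of the 12 lists was among these 10.

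Neighbouring genes were read for ANGPTL4 and FABPH, with the neighbours taken from the mink assembly ASM_NN_V1. ANGPTL4 lies between KANK3 and RAB11B. KANK3 fell by 0.53 ± 0.17 (SE; edgeR FDR 0.026), but was not called without any 1 library other than CD replicate 3 (0.0583 to 0.0989), and RAB11B had a log2 fold change of -0.22 ± 0.12 (SE) that did not pass. FABPH lies between ZCCHC17, with -0.09 ± 0.17 (SE), and SERINC2, which rose by 2.35 ± 0.15 (SE) from 9.69 to 11.0 CPM in control to 46.0 to 56.1 CPM in CD.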

How the data were processed

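Poly(A) RNA of Mv1Lu cells was sequenced in 3 control and 3 CD libraries. Per the labels, the processing notes name fastp 0.20.1, STAR 2.7.2a, R 4.0.3 and DESeq2 1.30.1. The methods of the paper name the mink assembly NNQGG.v01 for the alignment. The counting program and its use of strand are not given in the sources used here, so genes that overlap or have near-identical copies are uncertain. The count table that the authors deposited holds raw counts per gene and was used as it stands. In it, 4 rows are totals of reads outside genes, which held 29.3% to 47.2% of the reads of a library and were left out. The deposited files of normalized values were not used, because their identifiers follow another order than the counts.

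Counts were tested with edgeR 4.0.16 in R 4.3.3 (filterByExpr with minimum count 10 and minimum total 15, TMM, robust glmQLFit, glmQLFTest, condition as the only term) over 12148 genes, with Benjamini-Hochberg adjustment over all of them and calls at FDR under 0.05. Over the tested genes the median SE of a log2 fold change was 0.18, which sets the precision at this depth. The script was tested on simulated data with 200 changed genes. Alternatives were DESeq2 1.42.0, limma-voom (limma 3.58.1), other scalings in edgeR, other filters (including at least 50 counts in 3 libraries), a replicate block and each library left out, 14 settings in all.

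The genes of the set, the 12 lists and the 7 marker lists were chosen with earlier results of these data known. Named genes are the set, its family members and up to 4 called genes per list with the smallest FDR. To these were added the 5 tested genes with a symbol most like ANGPTL4 and FABPH (log2 CPM, prior count 2). LPL, ACACA, PPARG, HADHB, and the neighbours of ANGPTL4 and FABPH were named after their values were seen, as were family or list genes with few or no reads. Some list genes are counted but not reported here by name. Symbols were matched in any letter case or by the UniProt short name. The annotation of ASM_NN_V1 gave only the order of neighbouring genes, and no sequence was used here.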

Additional observations from a re-analysis of the deposited data

How the results depend on the processing

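ANGPTL4, FABPH and PDK4 were called in the same direction under all 14 alternatives. The 8 genes were chosen on this contrast, so their calls describe the settings only and are no independent evidence. No gene named by the rule changed sign where it was called in the main fit or in the alternative. ACADS, not called in any setting, went from 0.04 to -0.09 without CD replicate 3. Of the 8 genes 3 were called higher, and 2 to 5 with 1 library left out. ACADM was lost without control replicate 1 or 3, and ACADVL and HADHA were added without CD replicate 1, which gave the 5. HADHA was also added with upper quartile or total count scaling (4 called higher). The log2 fold change of HADHA moved from 0.26 to 0.21 without CD replicate 3. That of ACADVL went from 0.23 to 0.14 without CD replicate 3, and that of CPT2 from 0.16 to 0.10 without CD replicate 2. The larger shift of CPT1A is given above. Of the 18 mitochondrial oxidation genes 1 was called lower, and 0 to 3 with 1 library left out, 0 without control replicate 3 and 3 without CD replicate 3. The number called higher was 5, and 5 to 7. Of the 103 list genes 38 were called higher and 14 lower, with 30 to 51 and 10 to 19 when 1 library was left out, the highest of both without CD replicate 3. Calls over all genes were also most numerous in that setting, with 3616 higher and 3606 lower of 12330 tested, against 3016 and 2784 of 12148.

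The labels do not say whether the replicate numbers pair the samples, and this was not settled here. Deviations from the group means of same-numbered libraries correlated at -0.0240, -0.329 and -0.185 across genes. Those of differently numbered libraries correlated at -0.0243 to 0.260. Deviations within a group of 3 libraries constrain each other, so these values cannot decide on pairing. With the replicate number as a block 34 list genes were higher and 15 lower, 5 and 1 of the mitochondrial oxidation genes, and 3 and 1 of the chosen genes. Of the peroxisomal genes 4 were then higher, against 7, and of the import genes 1 was lower, against 2. PDK1 and LPL passed with the block, and PPARG and KANK3 did not. PDK4 rested on 25 to 45 control reads, and varied by 37.5% (control) and 38.1% (CD) between libraries.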
